A study of Mus musculus with 24 samples.

Results

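Immunoglobulin and B cell transcripts are 8 genes, Ighm, Igkc, Jchain, Cd79a, Cd79b, Ms4a1, Ebf1 and Pax5, of the 43430 gene IDs in a table of RNA-seq counts from sorted mouse lung macrophages. They were taken by gene ID from a fixed list, and all 8 were present and passed the filter on low counts. The table held 24 libraries, 4 in each of 6 groups of C57BL/6J mice with no allele or transgene named. Young animals were 8 to 12 weeks old and old animals more than 18 months. Cells came from naive animals of either age, sorted as Siglec F-high alveolar macrophages, and from animals of either age 28 days after asbestos, sorted as Siglec F-high and Siglec F-low alveolar macrophages. The series text speaks of tissue-resident and monocyte-derived alveolar macrophages, while the labels name the sorts by Siglec F. The labels do not say whether libraries came from separate animals, so the p-values measure the spread between these libraries, which may be technical.

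B cells carry an antibody on their surface as the B cell receptor. Ighm encodes the constant part of the IgM heavy chain, Igkc that of the kappa light chain, and Jchain the small protein that joins IgM or IgA into polymers and is made most strongly by antibody-secreting cells. Cd79a and Cd79b encode the signalling partners of the receptor, Ms4a1 encodes the surface protein CD20, and Ebf1 and Pax5 encode transcription factors that set and keep B cell identity. When a B cell becomes a plasma cell it makes far more antibody mRNA and loses Pax5, Ebf1 and CD20, so antibody transcripts and B cell identity transcripts need not move together. Lung cell suspensions contain B cells and plasma cells beside the macrophages.

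The question put to the 8 genes was whether Ighm differed alone between groups or together with the other B cell genes. Ighm was higher in libraries from old animals in each of the 3 age comparisons, by 4.76-fold in naive Siglec F-high cells, and Igkc rose with age in both asbestos sorts. Cd79a, Cd79b, Ms4a1, Ebf1 and Pax5 were not called higher or lower with age. After asbestos all 8 genes had negative log2 fold changes at both ages, and Igkc, Cd79a and Cd79b fell in young Siglec F-high cells. Among the antibody variable genes, Igkv3-2 took 7.13 to 43.5% of the kappa variable counts in the 12 old libraries and 0 to 1.44% in the 12 young ones.

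The sequence of Igkv3-2 is shown because it carries this last finding, and that of Ighv1-53, the most abundant heavy variable gene, to set beside it. Both are the last 300 bases of the germline coding sequence from GENCODE M21 on GRCm38, 5′ to 3′, with capitals at the bases that differ from the variable gene of nearest sequence in that annotation. Igkv3-2 (ENSMUSG00000095351) lies at chr6:70698449-70699067 on the plus strand. It has 359 coding bases, of which 92.8% are the same in Igkv3-1, and 20 of the 26 differing bases lie in the stretch shown, bases 60 to 359.
Igkv3-2: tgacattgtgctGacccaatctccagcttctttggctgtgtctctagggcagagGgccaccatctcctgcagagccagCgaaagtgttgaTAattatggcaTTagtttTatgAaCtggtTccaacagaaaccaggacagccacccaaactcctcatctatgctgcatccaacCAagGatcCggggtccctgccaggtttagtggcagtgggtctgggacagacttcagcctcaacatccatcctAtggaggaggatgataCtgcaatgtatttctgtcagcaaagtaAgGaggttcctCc
Ighv1-53 (ENSMUSG00000093894) lies at chr12:115158403-115158835 on the minus strand. It has 351 coding bases, of which 95.4% are the same in Ighv1-72, and 12 of the 16 differing bases lie in the stretch shown, bases 52 to 351.
Ighv1-53: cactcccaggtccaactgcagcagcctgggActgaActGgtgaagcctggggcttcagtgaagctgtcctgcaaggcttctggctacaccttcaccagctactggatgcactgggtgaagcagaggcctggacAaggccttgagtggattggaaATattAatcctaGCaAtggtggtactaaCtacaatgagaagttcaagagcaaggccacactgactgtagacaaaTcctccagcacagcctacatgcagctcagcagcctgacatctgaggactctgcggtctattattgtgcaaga
The nearest relatives held few counts over all 24 libraries, 62 for Igkv3-1 and 116 for Ighv1-72. The sequences are those of the reference genome and not of the rearranged transcripts, which can carry mutations and which a table of counts does not show.

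The members lie apart in the genome. On GRCm38, Ighm (ENSMUSG00000076617) is at chr12:113418558-113422730 on the minus strand within the heavy chain locus, and Igkc (ENSMUSG00000076609) is at chr6:70726435-70726966 on the plus strand, at the end of the kappa locus. Jchain (ENSMUSG00000067149) is at chr5:88519809-88527891, Cd79a (ENSMUSG00000003379) at chr7:24897381-24902197 and Cd79b (ENSMUSG00000040592) at chr11:106311341-106314762. Ms4a1 (ENSMUSG00000024673) is at chr19:11249675-11266241, Ebf1 (ENSMUSG00000057098) at chr11:44617317-45008091 and Pax5 (ENSMUSG00000014030) at chr4:44524757-44710487. The library kit does not mark strand, so reads from a gene and an antisense partner cannot be told apart. Such partners of Ms4a1, Ebf1 and Pax5 in the table held 0 to 4 counts in a library.

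In 22 libraries the total was 13423080 to 18124526 counts, with 17069 to 18820 genes at 1 count or more. The other 2 libraries stood apart. One, the third replicate of old Siglec F-high cells after asbestos, had a total of 3894699, with 54.0% of it on genes related to ribosomal RNA. The other, the third replicate of young Siglec F-high cells after asbestos, had a total of 11889517 spread over 12528 genes. Every test was made with all 24 libraries and again with the 22. Values are CPM, that is counts divided by a library size that TMM factors had corrected, and log2 fold changes are given ± SE from the quasi-likelihood F test of edgeR, with a call at an adjusted p under 0.05. The median log2 fold change over all genes was within -0.04 and 0.04 in every comparison. Transcripts that define alveolar macrophages were abundant, with a summed level of 13 markers of 32160 to 94190 CPM, against 41.8 to 421 CPM for the 8 B cell genes together. The B cell genes are thus minor transcripts in every library. In such bulk libraries, fewer B cells and less RNA per B cell cannot be told apart.

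Ighm was the most abundant member by counts in 4 of the 6 groups. In naive Siglec F-high cells it measured 30.2, 46.4, 33.7 and 30.5 CPM in the young libraries and 257, 122, 173 and 118 CPM in the old. The groups did not overlap, and the lowest old library was above the highest young library. The means were 35.2 ± 7.61 (SD, n = 4) and 167 ± 64.8 CPM (SD, n = 4), a log2 fold change of 2.25 ± 0.38 (adjusted p = 0.000871, edgeR). After asbestos the Siglec F-high libraries measured 14.8, 23.3, 16.5 and 11.7 CPM in the young and 81.2, 57.4, 71.8 and 21.7 CPM in the old. Old replicate 4 lay below young replicate 2, so these groups overlapped by that library, and the log2 fold change was 1.79 ± 0.38 (adjusted p = 0.00859, edgeR; 3.45-fold). The Siglec F-low libraries measured 26.5, 35.2, 28.1 and 14 CPM in the young and 83.7, 61.2, 129 and 46.4 CPM in the old, without overlap. Here the log2 fold change was 1.62 ± 0.37 (adjusted p = 0.0267, edgeR; 3.08-fold). Without the 2 outlying libraries the 3 adjusted p-values were 0.000192, 0.0157 and 0.00609. The Siglec F-low call was lost in 5 of the 8 fits that left out a library, with an adjusted p of at most 0.118, and was kept without young replicate 2, old replicate 2 or old replicate 4. The Siglec F-high call after asbestos was lost when only the 8 libraries compared were fitted (adjusted p = 0.238, edgeR).

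Igkc followed a different order. The naive libraries measured 28.8, 77.1, 38.1 and 38.6 CPM in the young and 120.3, 68.0, 72.8 and 71.9 CPM in the old. Young replicate 2 lay above 3 of the 4 old libraries, and the log2 fold change of 0.87 ± 0.38 did not pass the test (adjusted p = 0.457, edgeR). After asbestos the Siglec F-high libraries measured 14.2, 12.8, 21.3 and 16 CPM in the young and 50.4, 93.5, 37.5 and 17.3 CPM in the old. Igkc was higher in the old by a log2 fold change of 1.66 ± 0.39 (adjusted p = 0.0181, edgeR), with old replicate 4 inside the young range. The Siglec F-low libraries measured 9.57, 16.5, 17.2 and 20.4 CPM in the young and 47.5, 61.8, 69.4 and 32.6 CPM in the old, which did not overlap, at a log2 fold change of 1.73 ± 0.39 (adjusted p = 0.0248, edgeR). The first of these calls was lost in the fit of the 8 libraries compared (adjusted p = 0.462) and without old replicate 2 (adjusted p = 0.0843). The second was lost in 5 of the 8 fits that left out a library, with an adjusted p up to 0.118, and kept without young replicate 4, old replicate 1 or old replicate 4.

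Jchain measured 6.94 to 18.6 CPM in young naive and 14.2 to 24.2 CPM in old naive libraries, with a log2 fold change of 0.69 ± 0.56 that did not pass the test (adjusted p = 1.0, edgeR). In the Siglec F-low cells after asbestos it measured 2.97, 1.14, 1.24 and 5.99 CPM in the young and 8.05, 18.8, 19.3 and 9.48 CPM in the old. Those groups did not overlap, but the log2 fold change of 2.29 ± 0.61 missed the threshold with 24 libraries (adjusted p = 0.0745, edgeR) and passed it with 22 (2.29 ± 0.50, adjusted p = 0.00532). In Siglec F-high cells after asbestos the values were 3.32, 2.63, 18.7 and 5.30 CPM in the young and 12.3, 32, 12.2 and 6.04 CPM in the old. The high young value was that of outlying replicate 3. The log2 fold change was 1.15 ± 0.59 (adjusted p = 0.22, edgeR) with that library and 2.20 ± 0.55 (adjusted p = 0.0146) without both outlying libraries.

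**Figure D1:**
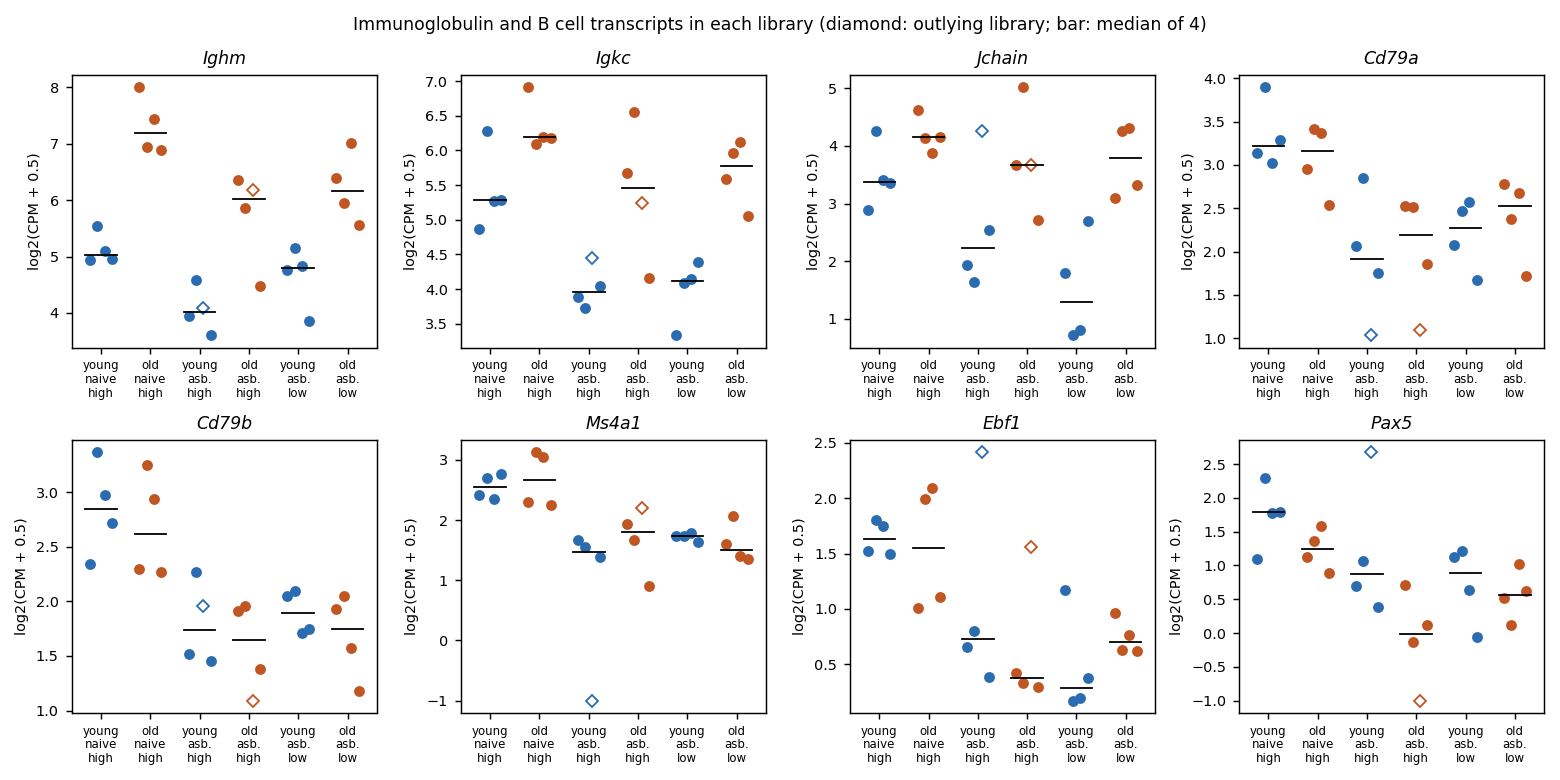
Level of each of the 8 genes in each library as log2(CPM + 0.5), by group, with young libraries in blue, old in orange, the 2 outlying libraries as open diamonds and the median of 4 libraries as a bar. Ighm lies higher in the old groups, with old asbestos Siglec F-high replicate 4 below 1 young library. Cd79a, Cd79b, Ms4a1, Ebf1 and Pax5 lie at like levels in young and old naive groups and, by their medians, lower in the asbestos groups. The outlying young library is the highest of all for Ebf1 and Pax5.

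The 5 genes of B cell identity and receptor signalling did not follow Ighm across age. Cd79a measured 8.33, 14.4, 7.62 and 9.26 CPM in young naive and 7.22, 10.2, 9.83 and 5.32 CPM in old naive libraries, ranges that overlap. Its log2 fold change was -0.28 ± 0.35 in naive cells, 0.17 ± 0.38 in Siglec F-high and 0.23 ± 0.36 in Siglec F-low cells after asbestos (adjusted p = 1.0, 0.813 and 1.0, edgeR). Cd79b gave -0.15 ± 0.29, -0.13 ± 0.32 and -0.22 ± 0.31, and Ms4a1 gave 0.19 ± 0.44, 0.49 ± 0.50 and -0.11 ± 0.46. The transcription factors were the lowest of the members per kilobase of exon. Ebf1 gave log2 fold changes of -0.02 ± 0.46, -1.09 ± 0.54 and 0.32 ± 0.50, and Pax5 gave -0.64 ± 0.52, -1.76 ± 0.61 and -0.30 ± 0.56. The low value of Pax5 in Siglec F-high cells after asbestos missed the threshold (adjusted p = 0.0819, edgeR) and moved to -0.71 ± 0.50 without the outlying libraries, of which the young one held the highest Pax5 level, 5.89 CPM, and the old one had no Pax5 count. DESeq2 called Pax5 lower there with 24 libraries (adjusted p = 0.0356).

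Counted over the 8 genes, edgeR called 1, 2 and 2 higher with age in naive Siglec F-high, asbestos Siglec F-high and asbestos Siglec F-low cells, and none lower. Over all 13467 genes tested, the share called higher was 1.68, 2.89 and 0.869%, and the share called lower 0.349, 1.87 and 0.423%. With 22 libraries the members called higher numbered 1, 3 and 3, against 5.11, 4.84 and 3.8% of 13629 genes, and none was called lower, against 2.91, 2.47 and 3.41%. None of the 5 genes other than Ighm, Igkc and Jchain was called by edgeR in an age comparison, with 24 or 22 libraries. At an unadjusted p under 0.05 they counted 0, 1 and 0 with 24 libraries, beside 1164, 3538 and 1097 of all 13467 genes. With 22 libraries they counted 0 in each, beside 2816, 2789 and 2757 of 13629 genes. DESeq2 called 0, 1 and 0, beside 3.52, 10.6 and 2.66% of all genes in either direction. A missed threshold does not show equal levels, and the SEs of these log2 fold changes were 0.29 to 0.61.

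**Figure D2:**
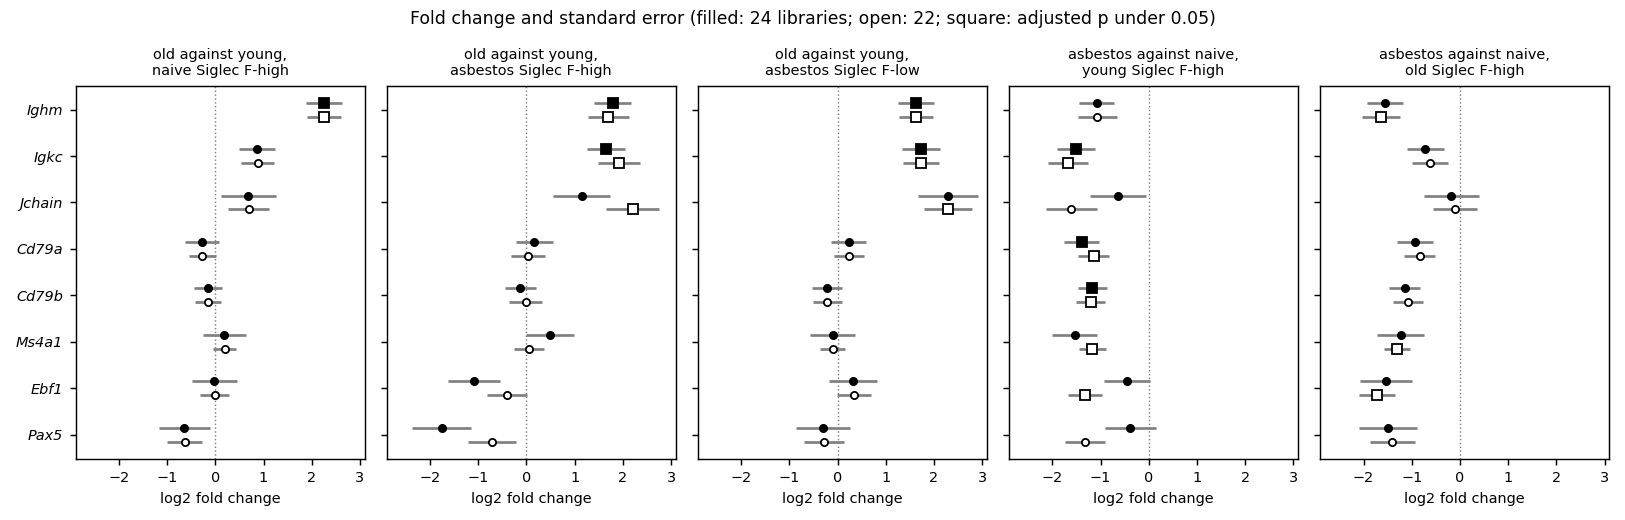
Log2 fold change of the 8 genes in the 3 age comparisons and both asbestos comparisons, with bars of 1 SE, filled for 24 and open for 22 libraries, and squares where the adjusted p was under 0.05. Ighm lies to the right of 0 in the 3 age comparisons, and all 8 genes lie to the left of 0 in the asbestos comparisons.

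The direction was shared after asbestos. From young naive to young asbestos Siglec F-high libraries the log2 fold change was negative for each of the 8 genes. Its median was -1.13 over the 8 against -0.01 over all genes. edgeR called 3 of 8 lower, beside 0.475% of all genes, and none higher, beside 1.43%. Igkc fell by 1.51 ± 0.39 on the log2 scale (adjusted p = 0.0455), Cd79a fell by 1.39 ± 0.36 (adjusted p = 0.0488) and Cd79b fell by 1.17 ± 0.30 (adjusted p = 0.0458). Cd79a measured 3.70, 6.70, 1.55 and 2.87 CPM in the young asbestos Siglec F-high libraries, all below the lowest young naive library at 7.62 CPM. Cd79b measured 2.36, 4.32, 3.38 and 2.24 CPM there, all below 4.58 CPM, the lowest young naive value. Ighm had a log2 fold change of -1.08 ± 0.37 and Ms4a1 of -1.53 ± 0.47, and neither passed the test (adjusted p = 0.132 and 0.0967, edgeR), although their groups did not overlap. Jchain, Ebf1 and Pax5 had log2 fold changes of -0.64, -0.46 and -0.38 with all libraries. In each of these 3 genes the outlying replicate 3 was the highest young asbestos Siglec F-high library and lay above every young naive one. Without the outlying libraries the values were -1.61, -1.33 and -1.32. With 22 libraries 5 of the 8 genes were called lower, beside 1.58% of all genes, Ms4a1 (-1.17 ± 0.27, adjusted p = 0.0122) and Ebf1 (adjusted p = 0.0289) joining the 3. The calls of Cd79a, Igkc and Cd79b lay near the threshold and were lost in 7, 6 and 5 of the 8 fits that left out a library, with adjusted p-values up to 0.147, 0.153 and 0.143. That of Cd79a was kept without asbestos replicate 2, that of Igkc without naive replicate 1 or asbestos replicate 3, and that of Cd79b without any 1 of these 3. They were also lost when only the 8 libraries compared were fitted (adjusted p = 0.562, 0.23 and 0.477, edgeR).

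In old animals the 8 log2 fold changes after asbestos were again negative, with a median of -1.19. edgeR called none of them with 24 libraries, beside 0.0668% of all genes called lower and 0.713% called higher. At an unadjusted p under 0.05 there were 6 of the 8, beside 1151 of all 13467 genes. DESeq2 called Cd79b and Ighm lower, beside 0.29% of all genes. Ighm measured 58.0 ± 26.1 CPM (SD, n = 4) after asbestos, with every library below every old naive one, and its log2 fold change of -1.55 ± 0.37 missed the threshold narrowly (adjusted p = 0.0513, edgeR; 0.00552 by DESeq2). It passed without asbestos replicate 1 (-1.80 ± 0.41, adjusted p = 0.0466). Cd79b had a log2 fold change of -1.15 ± 0.32 (adjusted p = 0.118), Ms4a1 of -1.23 ± 0.49 (adjusted p = 0.41) and Ebf1 of -1.53 ± 0.54 (adjusted p = 0.286). Cd79a had -0.94 ± 0.38 (adjusted p = 0.419) and Pax5 had -1.50 ± 0.60 (adjusted p = 0.428). Igkc and Jchain were nearest to 0, at -0.72 ± 0.38 and -0.18 ± 0.57. Without the outlying libraries edgeR called 3 of 8 lower, beside 0.969% of all genes. These were Ighm (-1.64 ± 0.38, adjusted p = 0.0167), Ms4a1 (-1.31 ± 0.27, adjusted p = 0.00717) and Ebf1 (-1.73 ± 0.37, adjusted p = 0.00921). The age comparison after asbestos and the asbestos comparisons at either age share the asbestos libraries, so their values for a gene are not independent.

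The Siglec F-low and Siglec F-high sorts were not told apart in these genes. edgeR called none of the 8 at either age with 24 or 22 libraries, and DESeq2 none, beside 4.99% of all genes in young and 4.3% in old animals (12 and 11.6% with 22 libraries, 8.41 and 6.86% by DESeq2). At an unadjusted p under 0.05 there was 1 gene in young animals with 24 libraries, Jchain (-1.35 ± 0.62, adjusted p = 0.214), and none with 22. The other counts were 0. Over all 13467 genes 2788 in young and 2079 in old animals had such a p with 24 libraries. Ighm had log2 fold changes of 0.64 ± 0.37 and 0.48 ± 0.37, low over high, in young and old animals. Cd79a had 0.16 ± 0.37 and 0.22 ± 0.38. Pax5 had -0.86 ± 0.54 in young animals with 24 libraries and 0.08 ± 0.44 with 22.

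Whether the age difference depended on asbestos or on the sort was tested as an interaction. None of the 8 genes was called in either test, beside 0 of all 13467 genes. The members with an unadjusted p under 0.05 numbered 0 and 0, beside 1050 and 650 of all genes. With 22 libraries the members were again uncalled, beside 0.0147% of all genes in each test, and Jchain had an unadjusted p of 0.0402 for asbestos. For Ighm the interaction was -0.47 ± 0.52 with asbestos and -0.16 ± 0.52 with the sort (adjusted p = 0.758 and 0.939, edgeR). The age differences of Ighm in the 3 settings were therefore not shown to differ.

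Levels per kilobase of exon allow the members to be set beside each other. In young naive cells the mean CPM per kilobase was 85.8 for Igkc, 18.7 for Ighm, 6.80 for Cd79a, 4.85 for Cd79b, 4.51 for Jchain, 0.879 for Ms4a1, 0.337 for Pax5 and 0.27 for Ebf1. In old naive cells Igkc stood at 156.5 and Ighm at 88.8, while Cd79a stood at 5.58 and Cd79b at 4.35. Igkc was thus the highest member per kilobase in both groups, and Ighm stood nearer to it in proportion in the old. In young asbestos Siglec F-high cells the values were 30.3 for Igkc, 8.79 for Ighm and 2.54 for Cd79a, and in old ones 93.4, 30.8 and 2.61.

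The count of an antibody gene per count of Cd79a in the same library does not depend on how the libraries were scaled. In young naive libraries Ighm held 3.21 to 4.42 counts per Cd79a count, and in old naive libraries 12.0 to 35.6. After asbestos the range in Siglec F-high libraries was 3.48 to 10.7 in the young and 6.95 to 44.0 in the old, or 3.48 to 4.07 and 6.95 to 15.5 without the outlying libraries. The Siglec F-low libraries held 5.18 to 7.15 in the young and 13 to 21.9 in the old. Igkc per Cd79a count also lay higher in old naive libraries, at 6.7 to 16.7 against 3.45 to 5.34 in the young. Cd79b per Cd79a count lay in ranges that overlap, 0.549 to 0.962 in young naive, 0.613 to 0.884 in old naive, 0.511 to 1.06 in young and 0.42 to 0.778 in old asbestos Siglec F-low libraries. In asbestos Siglec F-high libraries it was 0.638 to 2.2 in the young and 0.621 to 1.0 in the old. These ratios were not tested. The outlying old library rests on 2 Cd79a counts and the outlying young library on 16, so their ratios are poorly measured.

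**Figure D3:**
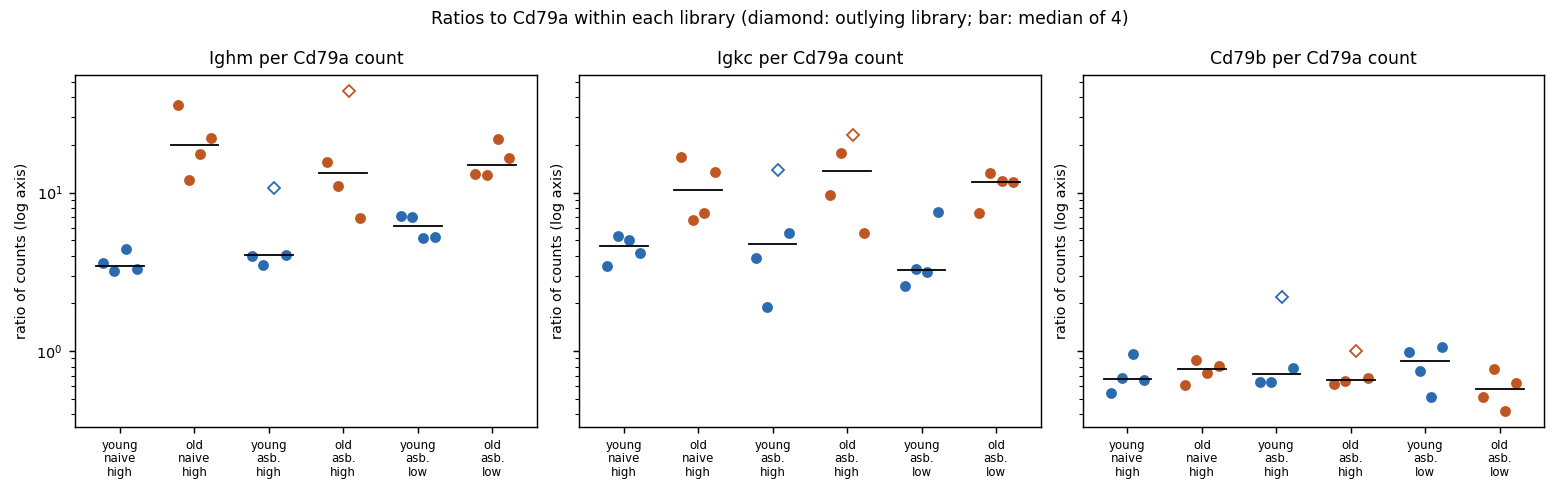
Counts of Ighm, Igkc and Cd79b per count of Cd79a in each library, on a log axis, by group, with the outlying libraries as open diamonds. Ighm per Cd79a lies at 3.21 to 4.42 in young naive and 12.0 to 35.6 in old naive libraries, while Cd79b per Cd79a stays at 0.549 to 0.962 and 0.613 to 0.884.

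B cells change the constant part of the heavy chain when they switch class, from IgM and IgD (Ighd) to IgG (Ighg genes), IgA (Igha) or IgE (Ighe). Of the counts on heavy constant genes, Igha held 58.1, 71.6, 61.2 and 59.8% in the young naive libraries and Ighm 31.0, 23.5, 27.6 and 26.3%. In old naive libraries Ighm held 87.0, 65.9, 83.3 and 59.7%, and Igha 5.07, 27.7, 10.9 and 26.7%. The leading heavy class was thus Igha in all 4 young naive libraries and Ighm in all 4 old naive ones. Igha measured 85.4 ± 38 CPM (SD, n = 4) in young naive and 35.4 ± 19.4 CPM (SD, n = 4) in old naive cells. The libraries did not overlap, but Igha varied widely within groups, and its log2 fold change of -1.27 ± 0.76 did not pass the test (adjusted p = 0.822, edgeR). Ighd, which naive B cells carry together with IgM, measured 10.3 ± 0.745 CPM (SD, n = 4) in young and 7.50 ± 2.30 CPM (SD, n = 4) in old naive cells, a log2 fold change of -0.46 ± 0.44 (adjusted p = 1.0, edgeR). The Ighd libraries overlapped, at 9.48 to 11.3 CPM in the young and 5.53 to 10.4 CPM in the old, so the sign of its age difference is not settled. Ighm, which lies beside Ighd in the same locus, was called higher with age in these cells. After asbestos the shares of Ighm spread widely, over 17.8 to 56.8% and 19.9 to 84.9% in the young Siglec F-high and F-low libraries, and over 21.5 to 52.7% and 27.9 to 62.1% in the old. Igha measured 12 to 76.4 CPM in young and 41.7 to 187 CPM in old Siglec F-high libraries, and 0.285 to 52.7 CPM in young and 37.1 to 138 CPM in old Siglec F-low libraries, ranges that overlap in each sort. In Siglec F-high cells the overlap came from outlying young replicate 3 at 76.4 CPM, and the other young libraries measured 26.0, 12.0 and 34.8 CPM.

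**Figure D4:**
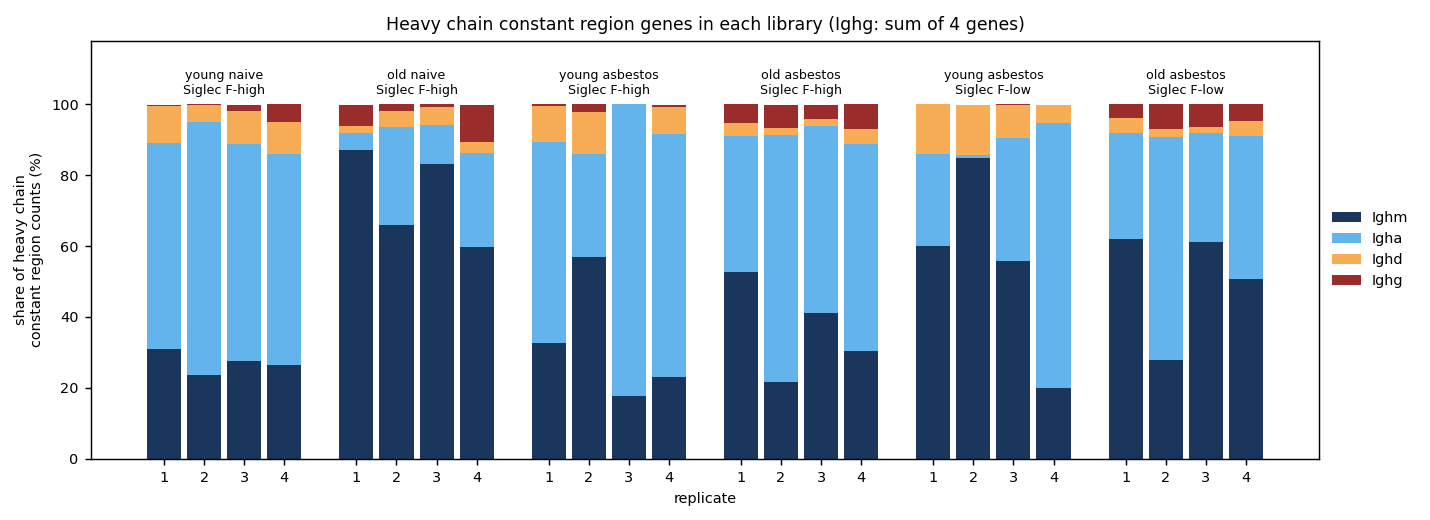
Share of heavy constant counts held by Ighm, Igha, Ighd and the 4 Ighg genes together in each library, in percent, by group. Igha holds the largest share in the 4 young naive libraries (58.1 to 71.6%) and Ighm in the 4 old naive libraries (59.7 to 87.0%).

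IgG transcripts were sparse in young libraries. Ighg2c summed to 3 counts over the 4 young naive libraries and 490 over the 4 old ones, with 1 old library at 0 and the highest at 18.2 CPM. The ratio per scaled library was 173, with a counting interval of 58.9 to 842. After asbestos it summed to 1 and 98 counts in young and old Siglec F-high cells, a ratio of 131 with a counting interval of 23 to 5240. Ighg2b held 123 counts in young and 124 in old naive cells, but 106 of the young counts came from replicate 4, and the other 3 young libraries held 2, 2 and 13 against 9 to 50 in the old. After asbestos Ighg2b held 25 counts in young against 237 in old Siglec F-high cells, and 2 against 394 in Siglec F-low cells. The last 2 sums gave a ratio of 206 with a counting interval of 56.6 to 1700, and all these intervals cover counting error only. Both genes passed the filter on low counts mainly through the old libraries, so these values are a description and no test is given for them. Ighe had no count in any library. Of the 12 constant genes looked for, 10 were in the table and 8 were tested. In naive Siglec F-high, asbestos Siglec F-high and asbestos Siglec F-low cells 2, 4 and 3 of them were called higher with age. Over all genes the shares called higher were 1.68, 2.89 and 0.869%. Each of these counts includes Ighg2b or Ighg2c, so they are given as counts only. The others called were Ighm and Igkc, reported above, so the counts add no further result.

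Each B cell joins its own variable gene to the constant part, and the cells of a clone share that choice, so the variable genes show how the antibody counts are spread. The table held 281 such genes, 175 heavy, 103 kappa and 3 lambda. The most abundant were Igkv3-2 with 1690 counts over the 24 libraries, Ighv1-53 with 633 and the lambda gene Iglv1 with 582. The 4 young naive libraries had 304 to 567 kappa variable counts on 48 to 53 genes, and the 4 old naive ones 656 to 1193 on 51 to 57 genes. Reads that fit several variable genes could not be followed, so counts of single variable genes are uncertain to that extent.

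Igkv3-2 was nearly absent from the young libraries. It measured 0 to 0.254 CPM in the 12 young libraries, against 17.6, 5.22, 18.9 and 8.16 CPM in old naive, 7.95, 5.68, 6.52 and 2.18 CPM in old asbestos Siglec F-high and 13.4, 2.93, 13.4 and 3.28 CPM in old asbestos Siglec F-low libraries. Every old library was above every young library. The sums were 12 counts in young naive against 876 in old naive, 2 against 267 in Siglec F-high and 2 against 531 in Siglec F-low cells after asbestos. Igkv3-2 was the most abundant variable gene and passed the filter on low counts only through the old libraries, so these values are a description and no test is given for them. The ratio of the sums per scaled library was 77.4 with a counting interval of 44.1 to 150 in naive cells. After asbestos the ratios were 179 with a counting interval of 49.1 to 1490 in Siglec F-high and 277 with one of 76.4 to 2300 in Siglec F-low cells.

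As a share of kappa variable counts, Igkv3-2 held 25.3, 14.2, 37.9 and 19.6% in old naive, 24.1, 10.9, 24.2 and 15.2% in old asbestos Siglec F-high and 43.5, 7.13, 25.9 and 18.2% in old asbestos Siglec F-low libraries. It led the kappa genes in 11 of the 12 old libraries and in 0 of the 12 young ones. The exception was old asbestos Siglec F-low replicate 2, where Igkv6-23 led. The share is taken within a library and does not depend on the scaling, and it separated the ages without overlap. Igkv3-2 lies on the plus strand of chromosome 6 near Igkc, whose own level overlapped between young and old naive libraries.

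**Figure D5:**
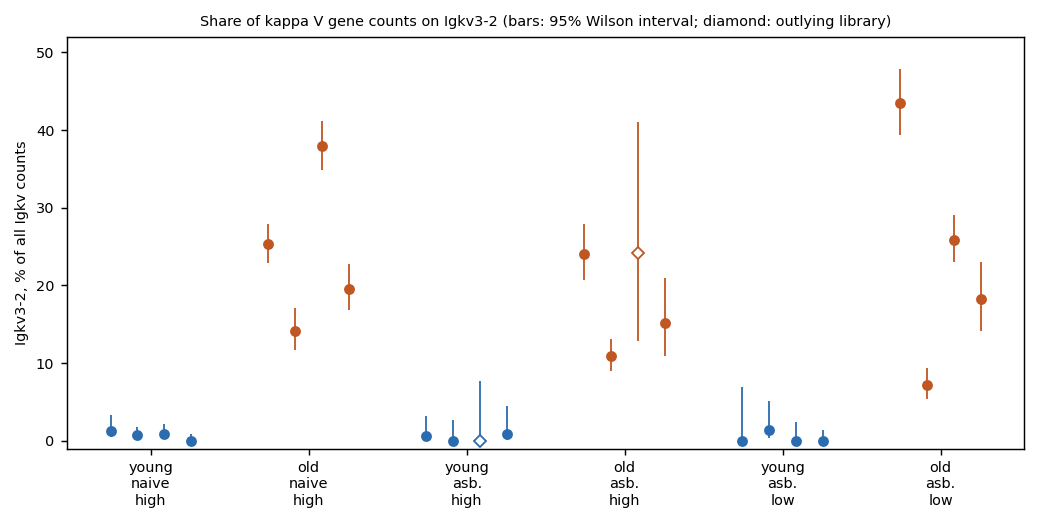
Share of kappa variable counts held by Igkv3-2 in each library, in percent, with the Wilson 95% interval of the counts, by group. The 12 old libraries lie at 7.13 to 43.5% and the 12 young ones at 0 to 1.44%.

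Ighv1-53 did not separate the ages by its share. It held 0 to 25.0% of the heavy variable counts in the young and 2.21 to 24.4% in the old libraries, and led the heavy genes in 1 young and 5 old libraries. By level, Ighv1-53 lay higher in every old than in every young library of the same sort after asbestos. It measured 0.878 to 2.45 against 0 to 0.748 CPM in Siglec F-high and 2.80 to 4.57 against 0 to 1.48 CPM in Siglec F-low libraries. Neither difference passed the test with 24 libraries (adjusted p = 0.116 and 0.345, edgeR). In naive libraries its levels overlapped. The log2 fold change of Ighv1-53 in naive cells was 2.73 ± 0.96 (adjusted p = 0.227, edgeR) with 24 libraries and 2.76 ± 0.83 (adjusted p = 0.0415) with 22. Of the 54 variable genes tested, edgeR called 1, 5 and 2 higher with age in naive Siglec F-high, asbestos Siglec F-high and asbestos Siglec F-low cells, beside 1.68, 2.89 and 0.869% of all genes. With 22 libraries it called 4, 5 and 6 of 74, beside 5.11, 4.84 and 3.8%. These counts include Igkv3-2, which was the 1 gene called in naive cells with 24 libraries. Variable genes abundant at 1 age could pass the filter through that age alone, so the counts are given as counts only.

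Other genes of B cells came from a fixed list of 18 surface and signalling genes, 17 of which were tested. None was called with age in any of the 3 comparisons, by edgeR with 24 or 22 libraries or by DESeq2. At an unadjusted p under 0.05 there were 0, 2 and 1 with 24 libraries, and their median log2 fold changes were -0.23, -0.03 and -0.01. Over all 13467 genes edgeR called 273, 641 and 174, and 1164, 3538 and 1097 had an unadjusted p under 0.05. At such shares a list of 17 genes may hold no call. After asbestos 2 fell in young Siglec F-high cells, beside 0.475% of all genes called lower. Of these H2-Ob, part of a regulator of antigen loading in B cells, fell by 1.01 ± 0.24 on the log2 scale (adjusted p = 0.0309, edgeR). Its call was lost when only the 8 libraries compared were fitted (adjusted p = 0.216, edgeR) and in 4 of the 8 fits that left out a library (naive replicates 2, 3 and 4 and asbestos replicate 1, adjusted p up to 0.104). The median of the 17 was -1.01 in young and -0.97 in old animals. In old animals none was called with 24 libraries, with 11 at an unadjusted p under 0.05 and 4 called by DESeq2. Over all 13467 genes 1151 had an unadjusted p under 0.05 there, and DESeq2 called 248. With 22 libraries 8 were called lower in young and 6 in old animals, beside 1.58 and 0.969% of all genes. Cd22 and Tnfrsf13b were not low after asbestos in young animals. Tnfrsf13b, a receptor for B cell survival factors, had a log2 fold change of 0.45 ± 0.18 (adjusted p = 0.178, edgeR), with 17.1 to 21.3 CPM after asbestos against 11.2 to 15.6 CPM in naive libraries. Cd22 measured 136 to 184 CPM as a mean in the 6 groups, with a log2 fold change of -0.20 ± 0.23 after asbestos in young animals (adjusted p = 0.639, edgeR).

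Of 7 B cell transcription factors tested beside Ebf1 and Pax5, none was called with age by edgeR, with 0, 2 and 0 at an unadjusted p under 0.05 and Pou2f2 and Pou2af1 called by DESeq2 in asbestos Siglec F-high cells. Over all 13467 genes edgeR called 273, 641 and 174 with age, and 1164, 3538 and 1097 had an unadjusted p under 0.05. DESeq2 called 10.6% of all genes with age in asbestos Siglec F-high cells. In young Siglec F-high cells Pou2af1, a B cell co-activator, fell by 2.05 ± 0.45 (adjusted p = 0.0182, edgeR) and Spib, a transcription factor of B cells and plasmacytoid dendritic cells, fell by 1.76 ± 0.45 (adjusted p = 0.0434) after asbestos. Both calls were lost in the fit of the 8 libraries compared (adjusted p = 0.68 and 0.707, edgeR). That of Pou2af1 was lost without naive replicate 3 or 4 (adjusted p up to 0.0646), and that of Spib without naive replicate 2, 3 or 4 or asbestos replicate 1 (adjusted p up to 0.135). These 2 were called lower beside 0.475% of all genes, and the median of the 7 was -1.26 (-0.90 with 22 libraries). Bach2 measured 2.925 to 5.97 CPM in young naive libraries and 0.964, 2.68, 0 and 2.37 CPM after asbestos. Bcl11a measured 1.49 to 2.82 CPM against 1.12, 1.44, 0 and 0.873 CPM. Neither was called, although their groups did not overlap. Ikzf3, Pou2f2 and Foxo1 overlapped between the groups. Pou2f2 measured 5.25 to 7.82 CPM in young naive libraries and 5.09, 7.15, 25.7 and 6.23 CPM after asbestos. Foxo1 measured 25.9 to 29.2 CPM against 20.8, 25.3, 41.5 and 28.9 CPM, with outlying replicate 3 the highest in each gene. Of 5 genes of early B cells in bone marrow, such as Rag1 and Vpreb1, none reached the filter, and their sum was 0 to 0.534 CPM in any library.

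Of 12 plasma cell genes 10 were tested. With age 1, 1 and 1 were called higher in naive Siglec F-high, asbestos Siglec F-high and asbestos Siglec F-low cells and 0, 1 and 0 lower. Over all genes the shares were 1.68, 2.89 and 0.869% called higher and 0.349, 1.87 and 0.423% called lower. Irf4, a transcription factor of plasma cells that activated myeloid cells also use, was higher in the old after asbestos, by 1.29 ± 0.24 in Siglec F-high and 1.69 ± 0.24 in Siglec F-low cells (adjusted p = 0.00301 and 0.000276, edgeR). Fkbp11, a folding enzyme of the secretory pathway, was higher in old than in young naive cells (1.97 ± 0.40, adjusted p = 0.00583, edgeR) and rose after asbestos in the young (2.62 ± 0.39, adjusted p = 0.00059). In the fits of the 8 libraries compared, the Siglec F-high call of Irf4 and the asbestos call of Fkbp11 were lost (adjusted p = 0.328 and 0.133, edgeR). Creld2, a protein of the endoplasmic reticulum, was lower in the old in asbestos Siglec F-high cells (-1.03 ± 0.24, adjusted p = 0.0176, edgeR; -0.42 ± 0.12, adjusted p = 0.0299 with 22 libraries). Between the sorts 3 of the 10 were called higher in Siglec F-low cells in young animals (Fkbp11, Sdc1 and Slamf7) and 4 in old ones (these and Irf4). Over all genes 4.99% in young and 4.3% in old animals were called in either direction. Sdc1, a surface proteoglycan used as a plasma cell marker, gave 2.72 ± 0.46 and 3.09 ± 0.50, and Slamf7 gave 3.28 ± 0.44 and 2.56 ± 0.44 (adjusted p at most 0.00106, edgeR). With 22 libraries 4 were called higher in Siglec F-low cells in young and 5 in old animals, beside 12 and 11.6% of all genes in either direction. At each age 1 was called lower, the plasma cell regulator Prdm1. In young animals Prdm1 measured 31.7 to 33.8 CPM in Siglec F-low and 52.2, 51.2, 15.5 and 40.6 CPM in Siglec F-high libraries. Xbp1 was not called between the sorts. Mzb1, a chaperone for antibody assembly in B cells and plasma cells, had age differences of 0.05 ± 0.49 in naive, 0.83 ± 0.51 in asbestos Siglec F-high and 1.62 ± 0.53 in asbestos Siglec F-low cells, none called with 24 libraries (adjusted p = 1.0, 0.307 and 0.195, edgeR). With 22 libraries Mzb1 was called in both asbestos sorts (1.77 ± 0.45 and 1.63 ± 0.41, adjusted p = 0.0164 in each). In that fit 1, 3 and 2 of the 10 were called higher with age, and 2, 1 and 2 lower. Over all genes the shares were 5.11, 4.84 and 3.8% higher and 2.91, 2.47 and 3.41% lower. Those called lower were Prdm1 and Creld2 in naive, Creld2 in asbestos Siglec F-high, and Creld2 and Xbp1 in asbestos Siglec F-low cells. Prdm1 measured 51.5 to 59.4 CPM in young naive and 31.8 to 41.3 CPM in old naive libraries. Xbp1, needed for plasma cell secretion and active in many secreting cells, had an age difference of -0.17 ± 0.10 in naive cells (adjusted p = 0.854, edgeR).

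Markers of other cells were read beside the members. The 12 T cell genes summed to 28.1 to 57.6 CPM in young naive and 23.3 to 47.5 CPM in old naive libraries, and to 19.6 to 44.3 and 12.8 to 30.2 CPM in young and old Siglec F-high libraries after asbestos. None of the 12 was called with age in naive cells or after asbestos at either age by edgeR or DESeq2, with 1, 1 and 3 at an unadjusted p under 0.05, and their medians were -0.21 with age and -0.54 and -0.92 after asbestos in young and old. In these comparisons edgeR called 273, 256 and 105 of all 13467 genes, and 1164, 2646 and 1151 had an unadjusted p under 0.05. With age after asbestos in Siglec F-high cells Tcf7 was called lower. The summed level of 7 NK cell genes was 1.65 to 11 CPM in any library and that of 6 endothelial genes 3.25 to 11.7 CPM. The 7 lung epithelial genes summed to 177 to 276 CPM in young naive and 284 to 388 CPM in old naive libraries, without overlap, and none of the 6 tested was called with age. Dendritic cell genes summed to 3.86 to 37.5 CPM and eosinophil genes to 0 to 5.71 CPM over all libraries. Neutrophil genes summed to 31.8 to 67.0 CPM, with the defining marker Ly6g at 0 in 5 of the 6 groups. Alveolar macrophage markers summed to 34120 to 46330 CPM in young naive and to 47340 to 53560 CPM in young asbestos Siglec F-high libraries. With 24 libraries edgeR called the dendritic gene Cd209a (-1.41 ± 0.37, adjusted p = 0.0499) and the neutrophil gene Csf3r (-0.94 ± 0.20, adjusted p = 0.0117) lower with age in naive cells. After asbestos in young animals Csf3r fell by 0.94 ± 0.20 (adjusted p = 0.0166, edgeR), and S100a8 rose by 1.93 ± 0.50 (adjusted p = 0.0458). Of the alveolar macrophage markers Fabp4 rose after asbestos in young animals (1.89 ± 0.44, adjusted p = 0.0245, edgeR), Chil3 rose in old animals (1.08 ± 0.24, adjusted p = 0.0308), and Siglecf was lower with age in Siglec F-low cells (-0.61 ± 0.14, adjusted p = 0.0257). The part of these differences in the results for the B cell genes was not tested. Of 18 genes of B cell receptor signalling that macrophages share, such as Syk and Btk, none was called with age or asbestos by edgeR with 24 libraries, with 1 to 3 at an unadjusted p under 0.05 in each comparison, and DESeq2 called Dapp1 and Lyn with age and Blnk after asbestos. Over all 13467 genes edgeR called 105 to 641 in each of these comparisons, and 1097 to 3538 had an unadjusted p under 0.05. With 22 libraries edgeR called Dapp1 and Rac2 with age in naive cells. In asbestos Siglec F-high cells it called Blnk, Btk and Inpp5d with age, and in asbestos Siglec F-low cells Blnk and Lyn. Over all 13629 genes these comparisons gave 1094, 997 and 983 calls. Of 7 antibody receptor genes tested, none was called with age by edgeR with 24 libraries or by DESeq2, with 1, 0 and 0 at an unadjusted p under 0.05, and Fcgr2b was called higher after asbestos in old animals. Over all 13467 genes edgeR called 273, 641 and 174 with age. With 22 libraries it called Fcgr2b lower with age in naive and Fcgr3 higher in asbestos Siglec F-high cells.

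The genes whose log2 CPM ran most like that of each kind of member were found over the 24 libraries among 10972 genes. For Cd79a they included Mettl26 (Pearson r = 0.844), Btla (0.843), Fcrla (0.84) and Cnn3 (0.812). For Ighm they were Nectin4 (0.808), Mfsd6 (0.797), Hmcn1 (0.792), H2-Eb1 (0.789) and H2-Aa (0.788), with no gene in common. With 22 libraries Tspan17 (0.841) led for Ighm. These values describe libraries that share groups, scaling and 2 outlying members, and they carry no test.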

How the data were processed

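RNA was measured in 24 libraries made with a NEBNext Ultra kit and poly(A) selection from 30 ng of total RNA. The authors deposited 1 table of whole-number counts per Ensembl gene, unscaled. The submitters' processing notes name bcl2fastq 2.19.1, FastQC, Trimmomatic 0.36, STAR 2.6.0, HTSeq 0.11.2 and mm10. The annotation release and strand setting are not given in the sources used here, and without unique molecular identifiers counts are not independent molecules.

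Symbols were matched for 42462 of 43430 IDs. Positions and variable gene sequences came from GENCODE M21 on GRCm38, the assembly of mm10, which held 42546 of the IDs. edgeR 4.0.16 in R 4.3.3 kept 13467 genes by filterByExpr (minimum count 10, minimum total 15), scaled them with TMM factors and fitted all 24 libraries with 1 term per group. The 7 comparisons and 2 interactions were tested by quasi-likelihood F, p-values were adjusted by Benjamini-Hochberg over all genes of a comparison, and the code was tested on simulated data. The SE is the size of the log2 fold change divided by the square root of F. A second fit without the 2 outlying libraries tested 13629 genes. DESeq2 1.42.0, another scaling, no filter, a replicate block, ribosomal RNA genes removed, the compared groups alone and leaving out each library were the other alternatives. Replicate pairs of 1 group differed by more than counting noise, with a chi-square per gene of at least 3.54.

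The 8 members, the lists and the contrasts were chosen with earlier results of these data known. The rule named all members, allowed genes of the B cell and plasma cell lists to be named, and named the 3 most abundant variable genes and the 5 genes most like Ighm and Cd79a by Pearson correlation of log2 CPM (prior count 2) at a mean CPM of at least 1, leaving out members, immunoglobulin genes and gene models without a given name. The lists are otherwise given by counts and summed levels, and genes of other lists are named where they were called with age or asbestos. Results of 1 such gene were left out and are not reported here.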

Additional observations from a re-analysis of the deposited data

Results flagged for a closer look

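Of 66 groups of 4 values examined for the members and named antibody genes, 7 held a library far from the other 3, where chance alone gives about 1 in 20. Igkc measured 120.3 CPM in old naive Siglec F-high replicate 1, against 68.0 to 72.8 CPM in the other 3. The outlying young asbestos Siglec F-high replicate 3 was far above its group for Jchain, at 18.7 CPM against 2.63 to 5.30, for Ebf1, at 4.83 CPM against 0.81 to 1.24, and for Pax5, at 5.89 CPM against 0.81 to 1.59. The same library had no count of Ms4a1, Spib, Fcer2a or Ighd, and its 69 variable gene counts lay on 3 genes, Igkv1-135 with 28, Ighv8-8 with 23 and Igkv6-15 with 18. It thus carried the highest Ebf1 and Pax5 of all 24 libraries with none of the CD20 transcript. Ebf1 also measured 2.45 CPM, from 3 counts, in the outlying old asbestos Siglec F-high replicate 3, against 0.727 to 0.843 CPM in the other 3, and 1.75 CPM in young asbestos Siglec F-low replicate 1, against 0.627 to 0.799. Igkv3-2 measured 0.114 CPM, from 2 counts, in young asbestos Siglec F-low replicate 2 and was at 0 in the other 3.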

How the results depend on the processing

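Ighm with age in naive Siglec F-high cells kept its direction and its call in all alternatives run, at 1.97 to 2.41 when each library was left out. When only the 8 libraries compared were fitted, Ighm with age in asbestos Siglec F-high cells (1.76) and Cd79a after asbestos in the young (-1.41) lost their calls. Cd79a also lost its call with no filter (-1.39), while Ighm after asbestos in old animals, uncalled at -1.55, was called with no filter (-1.58), without the 2 outlying libraries (-1.64), by DESeq2 (-1.52) and with a replicate block (-1.62, adjusted p = 0.00789). The causes were not tested.

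Signs turned in uncalled differences, of which Pax5 for the sort in young animals moved most, from -0.86 with 24 libraries. Without the 2 outlying libraries the low over high sort values became 0.16 for Igkc, -0.085 for Cd79a and 0.076 for Pax5 in young and -0.04 for Igkc and 0.064 for Ms4a1 in old animals, and the interactions became -0.14 for Ms4a1 with asbestos and -0.20 for Igkc with the sort. In old animals the low over high sort value of Ms4a1 became 0.002 with DESeq2 size factors, 0.001 in the groups alone and 0 with ribosomal RNA genes removed, and that of Cd79b 0.008 with DESeq2 size factors and 0.002 with ribosomal RNA genes removed.

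Leaving out each library gave -1.85 to -1.14 for Cd79a after asbestos in the young, -1.80 to -1.26 for Ighm after asbestos in the old and 1.30 to 1.82 for Ighm with age in asbestos Siglec F-low cells. Ranges that crossed or touched 0 were, for age in naive cells, -0.38 to 0.058 for Cd79b and -0.25 to 0.17 for Ebf1; for age in asbestos Siglec F-high cells, -0.033 to 0.63 for Cd79a and -0.26 to 0.10 for Cd79b; and for age in asbestos Siglec F-low cells, -0.31 to 0 for Ms4a1. Jchain after asbestos in the old gave -0.90 to 0.12. Low over high in young animals gave -0.084 to 0.62 for Cd79a, -0.038 to 0.31 for Cd79b, -0.14 to 0.18 for Igkc and -1.14 to 0.079 for Pax5. In old animals it gave -0.15 to 0.17 for Cd79b, -0.23 to 0.61 for Igkc, -0.50 to 0.52 for Jchain and -0.27 to 0.18 for Ms4a1. The interaction of age with asbestos gave -0.19 to 0.25 for Cd79b, -0.26 to 1.45 for Jchain and -0.09 to 0.57 for Ms4a1, and that with the sort -0.39 to 0.26 for Cd79a, -0.31 to 0.082 for Cd79b, -0.49 to 0.087 for Ighm and -0.23 to 0.61 for Igkc.

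The labels do not say that replicate numbers pair animals. With 24 libraries no pair of groups had every same-number correlation above 0.1, and with 22 the old asbestos sorts did (0.161 to 0.216 over 3 numbers). The replicate block turned 1 of 91 values in sign, Ms4a1 for the sort in old animals (0.024), ended 2 calls, Igkc (-1.43, adjusted p = 0.0627) and Spib (adjusted p = 0.0623) after asbestos in the young, and added 3 after asbestos in the old, among them Ighm and Cd79b (adjusted p = 0.0349). Of the same 91 values the fit with 22 libraries added 12 calls and ended none, and DESeq2 added 7. Depth limits Ebf1 and Pax5, at 7 to 69 counts in 23 and 0 to 3 in 1 of the libraries, and every value of old asbestos Siglec F-high replicate 3.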

Other observations

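Single variable genes led some of the young libraries after asbestos, a pattern chosen for description after its values were seen. In young asbestos Siglec F-low replicate 1, Iglv1 held 89 of 199 variable gene counts, or 44.7% (Wilson 95% interval 38 to 51.7), against 0 to 9.72% in each of the other 23 libraries. In young asbestos Siglec F-low replicate 2, Igkv14-126 held 36.1% (30.2 to 42.5) and Ighv11-2 18.7% (14.2 to 24.2) of 230 counts, and no other library was above 2.65% for the first or 1.68% for the second. As background, these 2 genes are a known heavy and light pair of B-1 cells, which make IgM to phosphatidylcholine. Ighm held 84.9% and Igha 0.687% of the heavy constant counts in that library, the highest Ighm share and the lowest Igha share among the 12 young libraries. These shares rest on few counts, and the intervals cover counting error only.

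In both old asbestos sorts the same replicate number had the highest share of Igha among heavy constant counts, replicate 2 with 70.0% in Siglec F-high and 62.9% in Siglec F-low cells. The Igkv3-2 share was lowest in replicate 2 of both, at 10.9 and 7.13%. The labels do not say whether a number marks an animal.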
